A study of Mus musculus with 26 samples.

Results

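Piezo and transient receptor potential (TRP) channels were followed in mesenteric arteries of mice that lack pannexin 1 or carry 1 changed residue in it. The 8 genes are Piezo1, Piezo2, Trpc6, Trpm4, Trpv2, Trpv4, Pkd1 and Pkd2, taken by symbol from the deposited table of normalized counts. All 8 were found among its 21031 genes. Bulk RNA sequencing of poly(A) RNA gave 26 libraries from male mice aged 8 weeks. Global Panx1 KO was set against WT with 3 libraries each. The Y198F+/+ genotype had 3 libraries beside 3 of Y198F-/-, Y308F+/+ had 3 beside 3 of Y308F-/-, and S205A+/+ had 4 beside 4 of S205A-/-. In each line the -/- genotype is the control and the +/+ genotype is called the mutant here. The design text names 3 vascular trees per genotype and littermate or WT controls, and whether a library pools animals is not given in the sources used here. Pannexin 1 is a membrane channel that releases ATP. By their names, Y198F and Y308F put phenylalanine in place of a tyrosine and S205A puts alanine in place of a serine, and neither new residue can be phosphorylated.

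Stretch channels open when the membrane is pulled, and the calcium or sodium that enters changes the tone of the vessel wall. PIEZO1 senses blood flow in endothelium, and PIEZO2 is best known from touch-sensing neurons and Merkel cells. TRPC6 and TRPM4 take part in the pressure-induced constriction of arterial smooth muscle, TRPC6 opening to diacylglycerol made by phospholipase C and TRPM4 to internal calcium. TRPV4 lets calcium into endothelium during relaxation, and TRPV2 responds to swelling of muscle cells. Polycystin-2, the product of Pkd2, is a cation channel of the TRP superfamily, and polycystin-1, the product of Pkd1, is its large receptor-like partner. Bulk RNA of a vessel mixes all of its cell types, so fewer cells of a type and less RNA per cell cannot be told apart in any value given here.

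Libraries fell into 2 sets by their deposited names. In 9 of them, here the 22 series, the number in the name begins with 22 once the letters and the line mark Y1 or Y3 are taken off. They are all 3 Y198F mutants, replicates 1 to 3 of the S205A controls, and replicates 2 to 4 of the S205A mutants. What that number stands for is not given in the sources used here. Every Y198F mutant is in it and every labelled Y198F control is outside it, so within that comparison series and mutation cannot be told apart. The libraries held 14.9 to 23.6 M counts. Panx1 itself had 4.88, 3.41 and 4.73 CPM in WT and 0.588, 0.951 and 1.37 CPM in Panx1 KO, and 0.824 CPM in S205A control 1 against 1.55 to 5.23 CPM in the other libraries of the 3 mutant lines. S205A control 1 also stood apart with a summed level of 8 endothelial markers of 1157 CPM (counts scaled to library size), against 3014 to 9695 CPM in the other libraries. S205A control 2 (9695 CPM) and Y308F control 1 (9576 CPM) were at the upper end. Of the vessel's defining markers, all 8 for smooth muscle and all 8 for endothelium had counts in every library, whereas mesothelial Msln was at 0 in 10 libraries.

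Piezo1 and Trpv4, both known from endothelium, varied together across these libraries, while Trpv2 varied with smooth muscle markers inside the 22 series, as described further on. Their promoters are printed here, and a link between composition and these patterns was not tested. Each is the stretch of 250 bases before the start site in the RefSeq promoter table (GRCm38.p6, which is not the build of the counts), with matches to any of 5 searched motifs in capitals.
Trpv4 (chr5:114658422-114658671, minus strand): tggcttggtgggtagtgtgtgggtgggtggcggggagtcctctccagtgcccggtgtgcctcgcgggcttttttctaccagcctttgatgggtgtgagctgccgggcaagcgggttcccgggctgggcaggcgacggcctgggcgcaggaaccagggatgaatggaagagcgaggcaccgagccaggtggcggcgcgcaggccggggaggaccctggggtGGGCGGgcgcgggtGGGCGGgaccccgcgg
Piezo1 (chr8:122551330-122551579, minus strand): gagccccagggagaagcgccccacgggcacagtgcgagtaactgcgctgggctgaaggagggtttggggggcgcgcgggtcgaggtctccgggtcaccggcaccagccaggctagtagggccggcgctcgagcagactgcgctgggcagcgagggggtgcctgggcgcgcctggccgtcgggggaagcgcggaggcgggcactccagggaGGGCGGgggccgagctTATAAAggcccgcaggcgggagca
Trpv2 (chr11:62574236-62574485, plus strand): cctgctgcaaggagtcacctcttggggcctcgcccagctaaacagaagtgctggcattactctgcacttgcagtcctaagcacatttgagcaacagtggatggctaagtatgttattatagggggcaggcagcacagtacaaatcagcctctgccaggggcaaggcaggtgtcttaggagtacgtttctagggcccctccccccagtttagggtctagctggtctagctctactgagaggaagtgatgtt
The bases G and C made up 72.0% of the Trpv4 stretch, 74.0% of Piezo1 and 53.2% of Trpv2, against a median of 52.4% over 32851 promoters in the table. CpG pairs numbered 22, 26 and 2, against a median of 6. The capitals in Trpv4 are 2 GC boxes, GGGCGG, whose first bases lie 30 and 16 bases before the start. Those in Piezo1 are 1 GC box 40 bases before the start and 1 TATA box, TATAAA, 24 bases before it. Both strands were searched, and 32.7% of all promoters hold the GC box and 12.4% the TATA box. The ETS motifs CCGGAAG and CAGGAAG, held by 6.91% and 10.8% of promoters, and the CArG box of muscle genes, held by 1.47%, had no match in these 3 windows. Trpv2 has 3 listed starts, and the one shown is the most upstream. The window of the next start holds CAGGAAG 11 bases before that start, and the Trpc6 window, not printed, holds a CArG box 122 bases before its start. The Pkd1 window, also not printed, has 67.2% G and C, 16 CpG pairs and 4 GC boxes, and the Pkd2 window 52.8%, 4 and 0. A match describes the letters only.

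Pkd1 and Trpv4 led by level, and Trpc6 and Piezo2 were far below the rest. On the scale of CPM per kilobase (kb) of all annotated exons, the means over 26 libraries were 24.4 ± 4.90 (SD) for Pkd1, 18.5 ± 8.16 for Trpv4, 11.1 ± 2.98 for Piezo1 and 9.22 ± 1.23 for Pkd2. They were 8.33 ± 2.67 for Trpv2, 3.51 ± 0.362 for Trpm4, 0.505 ± 0.167 for Trpc6 and 0.405 ± 0.216 for Piezo2. On this scale the step from Trpv2 down to Trpm4, and that from Trpm4 to Trpc6, held in all 26 libraries. Neighbours elsewhere crossed: Piezo1 exceeded Pkd2 in 18 libraries, Pkd2 exceeded Trpv2 in 18 and Trpc6 exceeded Piezo2 in 17. Among 17801 coding genes Pkd1 stood at the 93.4th percentile by this level, Trpm4 at the 60.9th and Piezo2 at the 33.2nd.

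**Figure D1:**
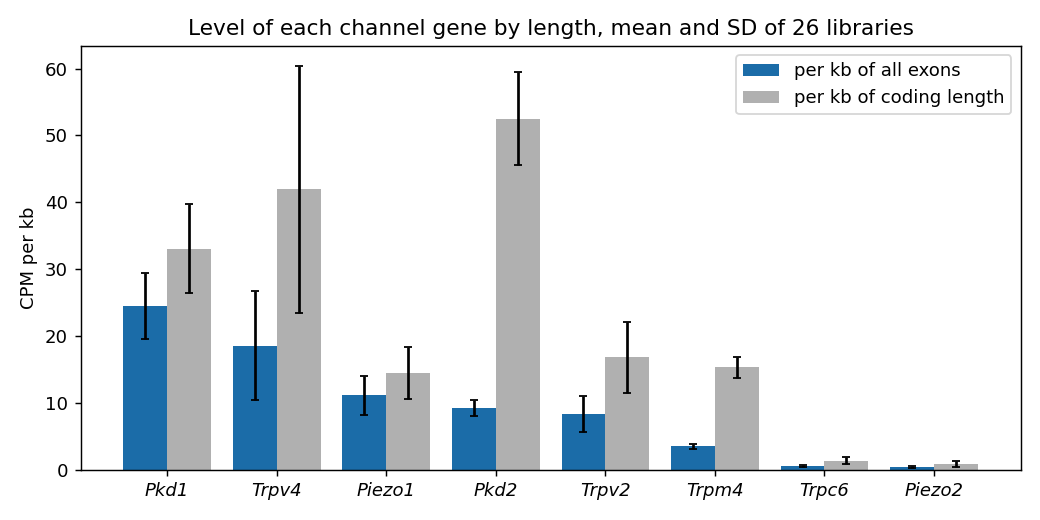
Mean level of each channel gene in CPM per kb over 26 libraries (bars, with SD as error bars), divided by the length of all exons (blue) or by the coding length (grey). By exon length Pkd1 led with 24.4 CPM per kb, and by coding length Pkd2 led with 52.5.

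The order depended on the length used. Per kb of coding length, Pkd2, whose annotated exons add up to 16770 bases for 2943 coding bases, had the highest mean, 52.5 CPM per kb. Trpv4 followed at 41.9 and Pkd1 at 33.1, and Piezo2 stayed lowest at 0.820. Trpm4, with 16060 exon bases for 3690 coding bases, came to 15.3 beside 16.8 for Trpv2. By coding length these genes crossed, with 15.7 for Trpm4 and 13.7 for Trpv2 in WT 1. Piezo1 (chr8:123208437-123278072, minus strand, GRCm39) shares 3924 exon bases with Ctu2 on the other strand, and Pkd1 (chr17:24768808-24815482, plus strand) shares 700 with Tsc2. Whether counting used the strand is not given in the sources used here, so reads in those bases are uncertain. Trpv2 (chr11:62465304-62491341, plus strand) and Trpv4 (chr5:114760209-114796914, minus strand) share no exon with another annotated gene.

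Piezo2 (chr18:63143284-63520260, minus strand), the mechanosensor known from touch neurons, varied most between groups. WT libraries had 13.2, 7.44 and 11.8 CPM, and Panx1 KO libraries 9.51, 8.70 and 14.0 CPM. Labelled Y198F controls had 10.8, 8.00 and 5.36 CPM, and Y198F mutants 2.87, 2.60 and 4.84 CPM. Every Y198F mutant was below every labelled control. S205A controls had 1.49, 0.758, 1.55 and 4.35 CPM, which are 29, 13, 28 and 80 counts. S205A mutants had 9.60, 3.40, 10.3 and 4.24 CPM, or 191, 52, 175 and 66 counts. Control 4, the one S205A control outside the 22 series, lay above mutants 2 and 4, so the S205A groups overlapped. Y308F controls had 7.05, 10.1 and 8.11 CPM and Y308F mutants 9.34, 5.02 and 6.24 CPM, also with overlap.

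Against its labelled controls the Y198F group had a lower Piezo2 level, with a log2 difference of -1.21 (SE 0.333) and an edgeR adjusted p of 0.0313. The direction turned with the control group. With the 3 S205A controls of the same library series in their place the log2 difference was 1.43 (SE 0.465), with an edgeR unadjusted p of 0.0148 and an adjusted p of 1.00. With the series as a term in 1 fit of all 8 groups it was -0.0038, with an adjusted p of 1.00. Only the S205A line has libraries of both series, so it alone sets that term, here and wherever the series is added. The value is thus not separate from the series difference within that line. Within the S205A line, libraries of the 22 series had less Piezo2 than the others by -1.22 (SE 0.465) on the log2 scale, with an edgeR adjusted p of 0.184, and -0.66 without S205A control 4. In the fit of all 8 groups with a series term that difference was -1.20, with an adjusted p of 0.0479. The call against the labelled controls was also lost with a replicate block (adjusted p = 0.0739), with all 8 groups in 1 fit (0.138), without Y198F control 1 (adjusted p = 0.143), without control 2 (0.0744), without mutant 1 (0.0823) and without mutant 2 (0.10).

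In the S205A line Piezo2 was higher in the mutants by 1.76 on the log2 scale (SE 0.562; 95% interval 0.50 to 3.01). The edgeR adjusted p was 1.00 over all genes and the unadjusted p was 0.0108, so it did not pass. DESeq2 on the same libraries gave an adjusted p of 0.208. Within the 3 against 3 libraries of the 22 series alone the log2 difference was 2.24 (SE 0.539), with an edgeR unadjusted p of 0.00352 and an adjusted p of 1.00. In the authors' deposited table, whose values for the 8 genes a DESeq2 fit of all 26 libraries returned to within 3.07e-06, Piezo2 had a log2 difference of 1.76 and an adjusted p of 0.0104, and was called. In the authors' deposited table it ranked 32nd by p among 19399 genes, of which 96 passed.

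Of the marker lists, 4 had medians with the sign of Piezo2 in the same comparisons and others did not. The summed level of 6 fibroblast markers (Pdgfra, Col1a1, Dcn, Lum, Pi16, Dpt) was 985 to 1453 CPM in the S205A controls and 1431 to 4122 CPM in the S205A mutants. Their median log2 difference there was 1.40, against -0.01 over all genes, and 0 of 6 passed in edgeR, with 4 of 6 at an unadjusted p under 0.05. In Y198F against labelled controls the median was -1.04 with 0 of 6 past the edgeR threshold and 4 of 6 at an unadjusted p under 0.05. Against the S205A controls of the 22 series it was 1.23, with 0 of 6 and 4 of 6. The 6 Schwann cell markers had medians of 0.91 in S205A, -0.66 in Y198F against labelled controls and 0.62 against the S205A controls of the 22 series. In the same order 0, 2 lower (Mbp and Cdh19) and 0 of them passed in edgeR, and 4, 3 and 5 had an unadjusted p under 0.05. Over all genes that p was reached by 451 of 15709 in S205A, by 4663 of 16050 in Y198F against labelled controls, where 15.0% were called, and by 492 of 15879 against the S205A controls of the 22 series. The Schwann cell markers' summed level was 75.0 to 115 CPM in the S205A controls and 115 to 211 CPM in the S205A mutants, and 147 to 239 CPM in the labelled Y198F controls and 115 to 136 CPM in the Y198F mutants. The lymphatic endothelial medians were 0.33, -1.16 and 0.92 and the macrophage medians 0.47, -0.53 and 0.40, with 0 calls in edgeR and, for the lymphatic list, 0, 2 and 1 of 6 and for macrophages 0 of 8 each time at an unadjusted p under 0.05. The medians of these 4 lists had the sign of Piezo2 in all 3 comparisons. The smooth muscle medians had the opposite sign in all 3 (-0.10, 0.37 and -0.20), with Tagln and Smtn higher and Lmod1 lower among 8 in Y198F against labelled controls and 0 calls in the others. The endothelial medians were -0.05, 0.15 and 0.12, with 1 of 8 called in Y198F against labelled controls (Cldn5, higher), and the adipocyte medians were -0.54, 1.07 and 1.55, with 0 calls in edgeR and 0 of 6 at an unadjusted p under 0.05. The part of any of these cells' RNA in the Piezo2 values was not tested.

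**Figure D2:**
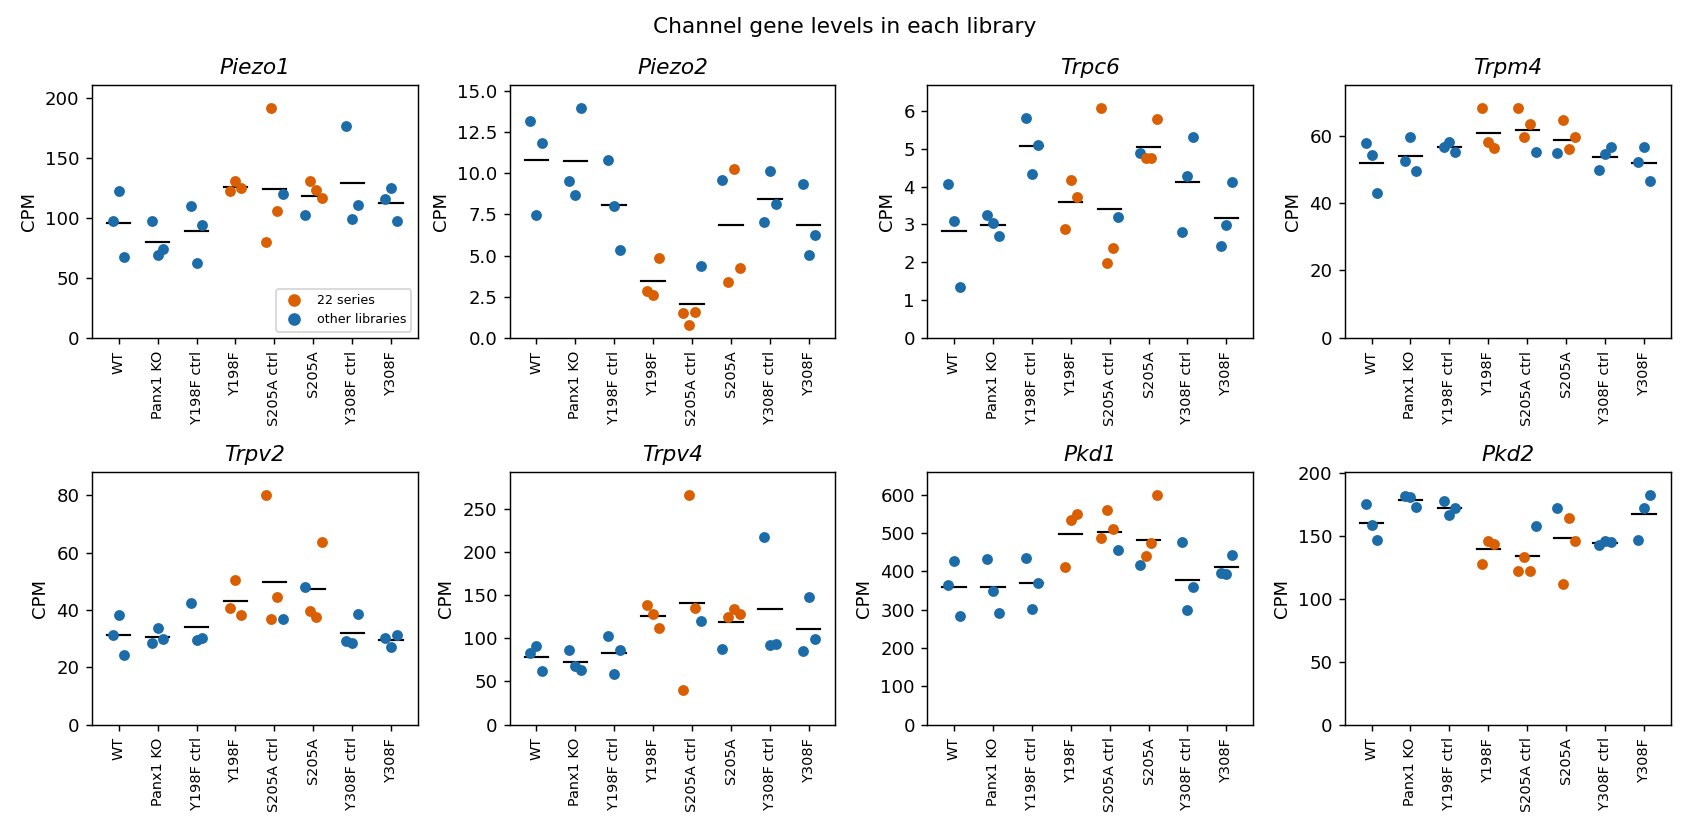
CPM of each channel gene in every library (points), by group, with a bar at the group mean; orange points are the 9 libraries of the 22 series and blue points the other 17. Piezo2 lies lowest in the S205A controls of the 22 series (0.758 to 1.55 CPM), and Trpv4 spans 40.5 to 266 CPM within the S205A controls.

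Trpv4, the calcium entry channel of endothelium, was the other gene called in Y198F. Labelled Y198F controls had 102, 58.9 and 85.9 CPM and Y198F mutants 138, 128 and 112 CPM, without overlap. The log2 difference was 0.63 (SE 0.178; edgeR adjusted p = 0.0429). Against the S205A controls of the 22 series it was -0.23 (SE 0.624; edgeR adjusted p = 1.00), and those 3 controls had 40.5, 266 and 134 CPM. With the library series as a term, which the S205A line alone sets, 1 fit of all 8 groups gave 0.20 (adjusted p = 1.00). Without that term the fit of all 8 groups gave an adjusted p of 0.433. The highest of those 3 S205A controls was control 2 and the lowest control 1, the libraries with the highest and the lowest summed CPM of endothelial markers. By the mean log2 CPM of these markers control 1 was also lowest (5.69), but control 2 (7.76) was below Y308F control 1 (8.47) and Y308F mutant 2 (8.17). The call was lost without Y198F control 2 (adjusted p = 0.0555), without control 3 (0.126), without mutant 1 (0.132) and without mutant 2 (0.120).

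Trpv4 elsewhere ran from 61.8 to 90.9 CPM in WT and from 63.0 to 86.6 CPM in Panx1 KO. In the Y308F line it was 218, 91.9 and 93.1 CPM in controls and 85.3, 147 and 99.2 CPM in mutants. Y308F control 1 was the highest library of that line and the other Y308F controls lay within the mutants' range. S205A mutants had 87.2, 125, 134 and 128 CPM. The log2 differences were -0.12 (SE 0.160) in Panx1 KO, -0.24 (SE 0.454) in S205A and -0.29 (SE 0.389) in Y308F. None passed in edgeR (adjusted p = 0.818, 1.00 and 0.970).

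Piezo1, the flow sensor of endothelium, followed the same libraries. It had 110, 62.4 and 94.4 CPM in labelled Y198F controls and 122, 131 and 125 CPM in Y198F mutants. The groups did not overlap, but the log2 difference of 0.53 (SE 0.172) missed the threshold in edgeR (adjusted p = 0.0694). DESeq2 gave an adjusted p of 0.0217 on the compared libraries and of 0.235 in a fit of all 26 libraries. Without Y198F control 2 the log2 difference was 0.33 (edgeR adjusted p = 0.0905). Without Y198F control 1 it was 0.70 and passed (edgeR adjusted p = 0.0249), as did Pkd1 (0.0434) and Trpv2 (0.0451). Against the S205A controls of the 22 series the log2 difference was -0.0039 (SE 0.309; edgeR adjusted p = 1.00). S205A controls had 80.2, 192, 106 and 120 CPM and S205A mutants 103, 131, 123 and 117 CPM, a log2 difference of -0.07 (SE 0.238; edgeR adjusted p = 1.00). Piezo1 was 97.5, 122 and 67.7 CPM in WT and 97.4, 68.8 and 73.9 CPM in Panx1 KO.

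Between Piezo1 and Trpv4, Pearson's r of log2 CPM was 0.913 over the 17 libraries outside the 22 series and 0.914 over the 9 inside it, given as a description. It was the highest r of the 28 pairs among the 8 genes in either set. The next outside the series was Piezo1 with Pkd1 (0.769), which was 0.230 inside it. Piezo1 and Piezo2, the paralogs, had an r of -0.418 and -0.153. The ratio of Piezo1 to Piezo2 counts was 10.1, 7.80 and 17.6 in labelled Y198F controls and 42.6, 50.4 and 25.9 in Y198F mutants. It was 53.7, 253, 68.1 and 27.6 in S205A controls and 10.7, 38.5, 12.0 and 27.6 in S205A mutants. By exact two-sided permutation tests the Y198F difference gave p = 0.1, the smallest that 3 against 3 libraries allow, and the S205A difference p = 0.0857. Over 16 ratios tested, the smallest adjusted p from these exact tests was 0.366.

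Trpv2, the swelling-gated channel, was highest in S205A control 1 at 80.2 CPM. The other S205A controls had 36.7, 44.4 and 37.0 CPM and the S205A mutants 48.0, 39.8, 37.5 and 63.9 CPM, a log2 difference of -0.07 (SE 0.274; edgeR adjusted p = 1.00). Without S205A control 1 it was 0.27. Control 1 also had the highest smooth muscle marker sum, 49621 CPM, against 23567 to 40624 CPM in the other libraries. In Y198F Trpv2 had a log2 difference of 0.36 (SE 0.157; edgeR adjusted p = 0.153) against the labelled controls and -0.32 (SE 0.289; edgeR adjusted p = 1.00) against the S205A controls of the 22 series.

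Trpm4 (chr7:44949126-44983986, minus strand), the calcium-activated channel of muscle depolarization, was the steadiest of the 8. It ran from 43.0 to 68.2 CPM over all libraries, an SD of 5.82 around 56.4 CPM. Its log2 difference was 0.05 (SE 0.125) in Panx1 KO, 0.12 (SE 0.105) in Y198F, -0.06 (SE 0.112) in S205A and -0.06 (SE 0.119) in Y308F. The 95% intervals reached at most 0.35 and at least -0.33 on the log2 scale in these 4 comparisons.

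Trpc6 (chr9:8492905-8682359, plus strand), the diacylglycerol-gated channel, had 27 to 118 counts per library. Labelled Y198F controls had 5.81, 4.34 and 5.10 CPM and Y198F mutants 2.87, 4.19 and 3.74 CPM. These groups did not overlap, yet the log2 difference of -0.48 (SE 0.281) had an edgeR adjusted p of 0.293. S205A controls had 6.08, 1.98, 2.39 and 3.21 CPM and S205A mutants 4.88, 4.77, 4.76 and 5.78 CPM. Their log2 difference was 0.56 (SE 0.362; edgeR adjusted p = 1.00), and 1.00 (edgeR adjusted p = 0.872) without S205A control 1, the highest control.

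The polycystin genes had opposite signs in Y198F against its labelled controls. Pkd1 had 435, 303 and 370 CPM in labelled Y198F controls and 412, 535 and 550 CPM in Y198F mutants. Pkd2 (chr5:104607240-104654573, plus strand) had 178, 167 and 173 CPM in those controls and 128, 147 and 144 CPM in the mutants, without overlap. The log2 differences were 0.45 (SE 0.152) for Pkd1 and -0.29 (SE 0.0986) for Pkd2. Neither passed in edgeR (adjusted p = 0.0683 and 0.0709), and both passed in DESeq2 on the compared libraries (0.0220 and 0.0459). In a DESeq2 fit of all 26 libraries neither passed (adjusted p = 0.138 and 0.165). Without Y198F mutant 1 Pkd1 also passed in edgeR (0.57, adjusted p = 0.0392). Against the S205A controls of the 22 series they were -0.06 (SE 0.165) and 0.15 (SE 0.118), and neither passed in edgeR (adjusted p = 1.00 for both).

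The ratio of Pkd1 to Pkd2 counts in each library is made from these same counts, so it is no separate evidence. It was 2.45, 1.81 and 2.14 in labelled Y198F controls and 3.21, 3.65 and 3.81 in Y198F mutants (exact two-sided permutation p = 0.1, adjusted p = 0.366). The 3 S205A controls of the 22 series had ratios of 3.99, 4.21 and 4.18, and the S205A control outside it 2.89. S205A mutants had 2.43 outside the series and 3.93, 2.89 and 4.10 inside it. In Panx1 KO the geometric mean of the ratio was 1.98 and in WT 2.21, with overlapping libraries (exact two-sided permutation p = 0.6).

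Over all 8 genes, 2 were called in Y198F against labelled controls (Piezo2 lower and Trpv4 higher) at an edgeR adjusted p under 0.05, where 15.0% of 16050 genes tested were called. An unadjusted p under 0.05 was reached by 6 of 8, and by 4663 of the 16050. Groups did not overlap for 5 of the 8 (Piezo1, Piezo2, Trpc6, Trpv4, Pkd2), against 34.2% of all genes. DESeq2 on the compared libraries called 5 of 8 and 13.2% of 19826 genes. In a DESeq2 fit of all 26 libraries the smallest adjusted p of the 8 in this comparison was 0.0793 (Piezo2). In Y198F against the S205A controls of the 22 series edgeR called 0 of 8 and 0% of 15879 genes, and 1 of 8 (Piezo2) had an unadjusted p under 0.05. The median log2 difference of the 8 was 0.24 against the labelled controls and -0.03 against the S205A controls of that series, and the median over all genes was -0.0028 and -0.0094. All 8 signs differed between these comparisons, which share the Y198F libraries. For the 8 genes the authors' deposited table for Y198F equals a fit against the S205A controls, with a largest difference in log2 difference of 6.57e-07, and differs from a fit against the labelled controls by up to 1.97. The authors' deposited table gives Piezo2 a log2 difference of 0.75 with an adjusted p of 0.779.

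Loss of Panx1 left no call among the 8. In Panx1 KO against WT edgeR and DESeq2 each called 0 of 8, with 0 of 8 at an unadjusted p under 0.05, where edgeR called 0.0309% of 16193 genes and DESeq2 0.677% of 15814. No group pair was free of overlap, against 18.5% of all genes. The largest log2 differences were -0.26 (SE 0.213) for Piezo1 and 0.15 (SE 0.102) for Pkd2, with 95% intervals from -0.76 to 0.23 and from -0.08 to 0.38. With 1 library left out the Piezo1 value ran from -0.45 (without WT 3) to -0.066 (without WT 2). The median over the 8 was -0.02, against 0.0052 over all genes.

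S205A and Y308F likewise gave 0 calls of 8 in edgeR and in DESeq2 on the compared libraries, unlike the authors' deposited table, which calls Piezo2 in S205A (adjusted p = 0.0104). Over all genes edgeR called 0% of 15709 and 0% of 16037 and DESeq2 0.195% of 20554 and 0% of 29461. An unadjusted p under 0.05 was reached by 1 of 8 in S205A (Piezo2) and 0 of 8 in Y308F. With CPM scaled within each comparison, as for all overlap counts here, no group pair among the 8 was free of overlap, against 1.77% of all genes in S205A and 10.7% in Y308F. On the CPM scaled over all 26 libraries Pkd2 in Y308F did not overlap, at 143, 146 and 145 CPM in controls and 147, 173 and 183 CPM in mutants. In Y308F the log2 differences ran from -0.38 (SE 0.337) for Trpc6 to 0.20 (SE 0.127) for Pkd2. The medians over the 8 were -0.06 in S205A and -0.17 in Y308F, against -0.01 and -0.03 over all genes.

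**Figure D3:**
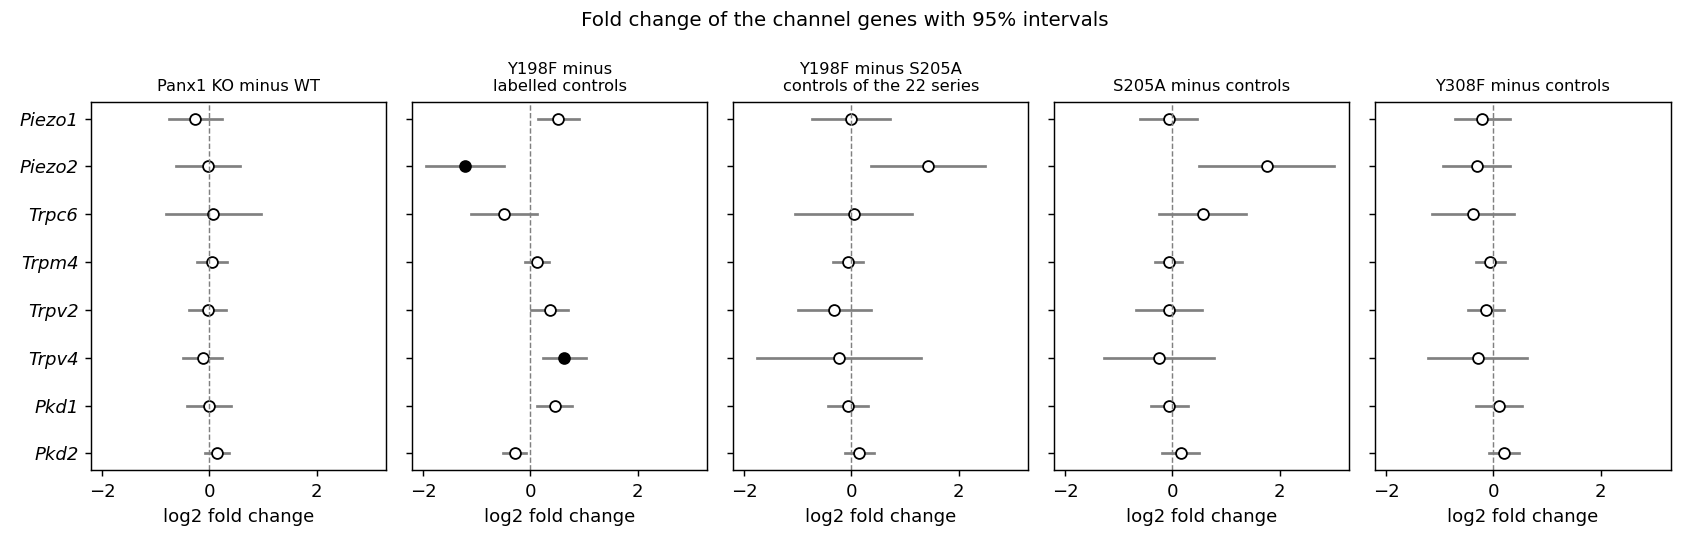
Log2 difference of each channel gene (points) with its 95% interval (lines) in the 4 labelled comparisons and in Y198F against the S205A controls of the 22 series; filled points have an edgeR adjusted p under 0.05. Piezo2 is at -1.21 against the labelled Y198F controls, at 1.43 against the S205A controls of the series and at 1.76 in S205A.

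Effects of mutations were compared directly where the libraries allowed it. The Piezo2 effect differed by 2.04 (SE 0.702) on the log2 scale between S205A and Y308F and by -1.81 (SE 0.706) between Panx1 KO and S205A. The edgeR unadjusted p were 0.0110 and 0.0224, and the adjusted p were 1.00 and 0.999. Of the 8 genes 0 passed in any of the 3 such tests, with 1, 1 and 0 at an unadjusted p under 0.05 for KO minus S205A, S205A minus Y308F and KO minus Y308F. Over all genes 0.00562%, 0% and 0.0116% were called. Among the WT, Y198F and Y308F control groups, none in the 22 series, edgeR called 0 of 8 and 0% of 16745 genes. The smallest adjusted p of the 8 was 0.712, and 0 had an unadjusted p under 0.05. Between the series within the S205A line edgeR called 0 of 8, with 1 (Piezo2) at an unadjusted p under 0.05, and 4.41% of 18918 genes.

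Each of the 8 genes was also set against 9 lists of cell type markers over the 17 libraries outside the 22 series, by the mean log2 CPM of each list. Of these 72 relations, 4 passed by Pearson's r at a permutation p adjusted over all of them, and 1 of the 4 also by Spearman's rho. Pkd1 was lower where the 6 Schwann cell markers were higher. Its r was -0.87 (permutation p = 2e-05, adjusted p = 0.00144) and rho -0.91 (permutation adjusted p = 0.00144). Without the 2 libraries farthest from the median marker level, r was -0.79 (permutation adjusted p = 0.0338), and within the 22 series -0.50 (exact permutation adjusted p = 0.571), or -0.19 there without S205A mutant 2 and S205A control 2.

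Trpv4 rose with the 8 endothelial markers at an r of 0.80 (permutation p = 0.00062, adjusted p = 0.0149) and a rho of 0.44 (permutation p = 0.0813, adjusted p = 0.246). Piezo1 had an r of 0.69 (permutation p = 0.00246, adjusted p = 0.0443) and a rho of 0.49 (permutation p = 0.0473, adjusted p = 0.224). Without Y308F control 1 and Y308F mutant 2, the libraries farthest from the median marker level, r fell to 0.33 and 0.41 (permutation adjusted p = 0.513 and 0.470), and neither passed. Within the 22 series r was 0.83 and 0.82 (exact permutation adjusted p = 0.236 and 0.135), with rho of 0.17 for Trpv4 and 0.85 for Piezo1. Without S205A control 1 and Y198F mutant 3, r in the series was 0.51 and 0.75. Trpv2 fell with the 8 macrophage markers. The r was -0.76 (permutation p = 0.00044, adjusted p = 0.0149), rho -0.69 (permutation p = 0.00326, adjusted p = 0.0587), and r without Y198F control 1 and Y308F control 3 -0.67 (permutation adjusted p = 0.0737). Within the 22 series r was -0.41 (exact permutation adjusted p = 0.711), and -0.18 without S205A mutant 3 and Y198F mutant 3.

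**Figure D4:**
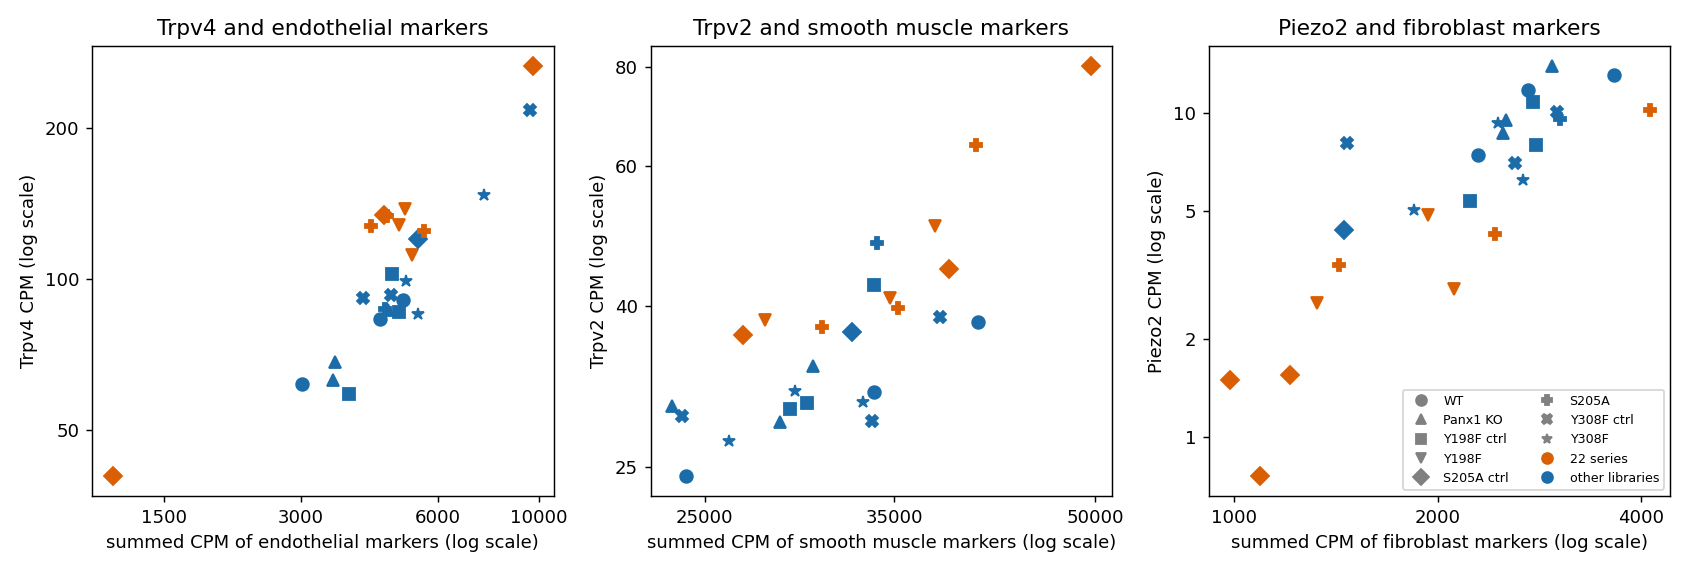
CPM of Trpv4, Trpv2 and Piezo2 against the summed CPM of endothelial, smooth muscle and fibroblast markers, both on log scales, 1 point per library with the group as symbol and the library series as colour. S205A control 1 has the lowest endothelial sum (1157 CPM) and the highest smooth muscle sum (49621 CPM).

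Some relations did not pass outside the series. Nearest the threshold was Trpv2 with lymphatic endothelial markers (r = -0.65) and with adipocyte markers (r = -0.66), both at a permutation adjusted p of 0.0522. Within the 22 series these were -0.55 and -0.44 (exact permutation adjusted p = 0.495 and 0.683). Trpv2 with the endothelial markers had an r of -0.87 there (exact permutation adjusted p = 0.109). Trpv2 with the 8 smooth muscle markers had an r of 0.63 (permutation p = 0.00663, adjusted p = 0.0564) and a rho of 0.64 (permutation p = 0.00657, adjusted p = 0.0677). Within the 22 series r was 0.92 (exact permutation adjusted p = 0.00893) and rho 0.97. Without the 2 libraries farthest from the median, S205A controls 1 and 2, r within the series was 0.86. Piezo2 with the 6 fibroblast markers had an r of 0.63 (permutation p = 0.0061, adjusted p = 0.0564) and a rho of 0.71 (permutation p = 0.00196, adjusted p = 0.0587). Without S205A control 4 and Y308F control 3 it was 0.76 (permutation adjusted p = 0.0338). Within the 22 series r was 0.82 and rho 0.90 (exact permutation adjusted p of r = 0.135). Piezo2 with the Schwann cell markers had an r of 0.57 outside the series (permutation adjusted p = 0.0772) and 0.73 inside it (exact permutation adjusted p = 0.213). For Piezo1 with those markers r was -0.63 outside (permutation adjusted p = 0.0564) and -0.15 inside (exact permutation adjusted p = 0.889).

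Genes most like each channel gene were searched among 12629 genes by Pearson's r of log2 CPM over the 17 libraries and then read in the 9 of the 22 series. For Trpv4 they were Parvb, Ripor1 and Jag2, with r from 0.966 to 0.973 over the 17 and 0.961, 0.841 and 0.978 over the 9. For Piezo1 they were Sema3g, Podxl and Vwf (0.941 to 0.945), and over the 9 libraries these had r of 0.914, 0.918 and 0.927. Vwf, which makes von Willebrand factor, is itself on the endothelial list, and Jag2 encodes a Notch ligand. For Piezo2 they were Entpd2, an enzyme that breaks down extracellular ATP, Sorcs2 and Acsbg1 (0.848 to 0.858), at 0.943, 0.942 and 0.897 over the 9.

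Among the other genes the r in the second set varied widely. The leading gene of Trpc6, Exoc3l4, had an r of 0.879 over the 17 libraries and -0.282 over the 9, while the second, Bcl9, had 0.866 and 0.663. All 3 genes most like Trpm4, led by Tmprss9 (0.867 and -0.268), had a negative r over the 9. Mcam, the second gene for Trpv2, had 0.872 and 0.912, and the first, Plekhb2, 0.884 and 0.612. For Pkd1 they were led by Utrn (0.945 and 0.412) and Ano6 (0.921 and 0.698), and for Pkd2 by Zfp967 (0.842 and 0.245) and Prpf4b (0.837 and 0.651).

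Other genes of the TRP family were mostly sparse. In the 13 control libraries Trpm7 led 26 further family genes at 8.32 CPM per kb of exon, followed by Mcoln1, a lysosomal channel, at 5.39 and Trpc1 at 2.37. Trpc2, Trpv5 and Trpa1 had 0 counts in every library. In Y198F against labelled controls 1 of 12 tested rose (Mcoln1, log2 difference 0.44, edgeR adjusted p = 0.0127) and 0 fell, where 15.0% of all genes were called in either direction, with a list median of 0.28 against -0.0028 over all genes. In Panx1 KO 0 of 11, in S205A 0 of 12 and in Y308F 0 of 12 passed in edgeR, with 1, 0 and 0 at an unadjusted p under 0.05.

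Other stretch and swelling channels and their partners were led by proteins of caveolae. Of 26 genes, Cavin1 and Cav1 were highest at 291 and 141 CPM per kb, and the channel Tmem63a followed at 17.9. Tmem63a rose in Y198F against labelled controls (log2 difference 0.42, edgeR adjusted p = 0.0138) and was higher in the 22 series within the S205A line (0.52, edgeR adjusted p = 0.0486). Mdfic, which binds Piezo channels, fell in Y198F by 0.57 on the log2 scale (edgeR adjusted p = 0.0101). These were 2 of 15 tested in Y198F, where 15.0% of all genes were called, and 0 of 16 passed in edgeR in Panx1 KO, S205A and Y308F, with 1, 1 and 0 at an unadjusted p under 0.05.

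The Gq and phospholipase C route, which makes the diacylglycerol that opens Trpc6, was well represented. Gna11 (29.0 CPM per kb), Itpr1 (23.3) and Gnaq (21.4) were the highest of 18 genes. In Y198F against labelled controls Gna11 rose by 0.47 on the log2 scale, while its paralog Gnaq fell by 0.50 and Prkca, a protein kinase C, fell by 0.67 (edgeR adjusted p = 0.00776, 0.00944 and 0.0144). These 3 were the calls among 18 tested, beside 15.0% over all genes. When the S205A controls of the 22 series were the comparison, Gna11 was at -0.05 (SE 0.120), Gnaq at 2.51e-05 (SE 0.302) and Prkca at 0.17 (SE 0.257) on the log2 scale. In Panx1 KO 0 of 18, in S205A 0 of 17 and in Y308F 0 of 18 passed in edgeR, with 1, 0 and 1 at an unadjusted p under 0.05. Against the S205A controls of the 22 series the Y198F group had 0 calls in all 3 lists in edgeR, with 0 of 11, 0 of 16 and 1 of 18 at an unadjusted p under 0.05.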

How the data were processed

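RNA of mesenteric arteries was sequenced in pairs of 150 bases. Reads were mapped by the authors to GRCm39 with STAR 2.7.9a, per the submitters' processing notes. Genes were counted by featureCounts (Rsubread 2.20.0), as the series' design text states. Whole-number counts for 57010 genes were deposited, and a second deposited table holds a normalized signal, which equals the counts divided by DESeq2 size factors when tested on the values. The authors' 4 comparison tables (DESeq2 1.46.0, per the submitters' processing notes) give log2 fold changes, a test score and p-values, as deposited.

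The deposited counts were tested with edgeR 4.0.16 (quasi-likelihood, TMM, filterByExpr, only the groups compared) and Benjamini-Hochberg adjusted p-values over all genes tested, with a threshold of 0.05. Adjusted p-values just under 1 are printed as 1.00. CPM were scaled by TMM over all 26 libraries, with a prior count of 2 for log2 CPM. Levels per kb used GENCODE vM39 exons. Single ratios had exact permutation tests, relations 100000 permutations (all 362880 orders with 9 libraries). Replicates differed by more than sampling noise (in 30 same-group pairs, chi-square divided by its degrees of freedom was 15.0 to 159). The labels do not say that they come from separate animals, so p-values measure the spread between these samples only. The fits were tested on simulated counts. Precision is limited by 3 or 4 libraries a group; counts per library were 13 to 276 for Piezo2 and 27 to 118 for Trpc6. Alternatives were DESeq2 1.42.0, DESeq2 size factors, no filter, all 8 groups in 1 fit with and without the library series, a replicate block, and leaving out single libraries. Leaving out S205A controls 1 and 2 together, and leaving out libraries of the fit between the series, were chosen after seeing the data. The 8 genes were given; further genes named are up to 5 of each list past the threshold, the 3 highest of each list and the 3 most alike per gene, apart from Panx1 and genes with no counts. The 8 genes and the lists were chosen with earlier results of these data known. Replicate numbers did not pair the libraries: in no comparison did every same-numbered pair have a correlation of deviations over 0.1.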

Additional observations from a re-analysis of the deposited data

Results flagged for a closer look

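Trpc6 in S205A mutant 4 was flagged as far from the other libraries of its group. It had 5.78 CPM, where the others had 4.76 to 4.88 CPM, and the gap was 0.882 of the group's range, above Dixon's critical value for 4 samples. Chance flags about 1 in 20 groups, and 16 were looked at here.

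In 7 cases, each of 1 gene in 1 pair of comparisons, every mutant library lay on one side of its controls' mean in Y198F and every mutant library on the opposite side in another comparison. These differences were not tested. For Piezo2, Trpc6 and Trpv4 the effect of Y198F minus that of S205A was -2.97, -1.04 and 0.87 on the log2 scale. For Piezo1, Trpv2 and Pkd2 the effect of Y198F minus that of Y308F was 0.73, 0.50 and -0.49. For Pkd2 the effect of Y198F minus that of Panx1 KO was -0.44.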

How the results depend on the processing

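Counts of genes past the threshold moved with the settings. For Panx1 KO the 5 calls became 107 with DESeq2, 243 with no filter and 18 with the replicate block, and 1 to 5 with 1 library left out. For Y198F the 2411 became 2613 with DESeq2, 922 with all 8 groups in 1 fit, 0 with the library series added and 0 against the S205A controls of the 22 series. With 1 library left out they were 908 to 2128 (lowest without Y198F control 3), and the largest count over 13 alternatives was 3158. S205A went from 0 to 40 with DESeq2 and to 0 to 1 with 1 left out, and Y308F from 0 to 7 with no filter and to 0 to 1. Between the series the 834 became 2189 in the fit of all groups and 82 (without S205A control 4) to 1133. Among the 3 control groups no filter gave 23 and leaving out 1 library 0 to 2. For the differences between effects, no filter gave 3 (KO minus S205A), 6 (KO minus Y308F) and 1 (S205A minus Y308F), and leaving out 1 library 0 to 3 for the first and 2 to 5 for the second.

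Signs of log2 fold changes turned too. In Y198F the series term gave -0.063 for Trpm4 and 0.0063 for Pkd2, and the S205A controls of the 22 series gave -0.0039 for Piezo1, 1.43 for Piezo2, 0.043 for Trpc6, -0.067 for Trpm4, -0.32 for Trpv2, -0.23 for Trpv4, -0.061 for Pkd1 and 0.15 for Pkd2. In S205A the replicate block gave 0.0012 for Piezo1 and 0.027 for Trpv4, and leaving out controls 1 and 2 gave 0.081 for Piezo1, 0.22 for Trpv2 and 0.0096 for Pkd1. With 1 library left out, values in Panx1 KO ran from -0.27 to 0.13 for Piezo2, -0.25 to 0.44 for Trpc6, -0.052 to 0.14 for Trpm4, -0.17 to 0.12 for Trpv2 and -0.18 to 0.12 for Pkd1. In S205A they ran from -0.23 to 0.21 for Piezo1, -0.24 to 0.27 for Trpv2, -0.55 to 0.27 for Trpv4 and -0.18 to 0.013 for Pkd1. In Y308F they ran from -0.36 to 0.10 for Piezo1, -0.11 to 0.024 for Trpm4, -0.21 to 0.020 for Trpv2, -0.54 to 0.25 for Trpv4 and -0.037 to 0.31 for Pkd1. Between the series they ran from -0.030 to 0.31 for Piezo1, -0.21 to 0.23 for Trpc6 and -0.013 to 0.55 for Trpv2. The causes were not tested.

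The replicate block ended the Piezo2 call in Y198F (adjusted p = 0.0739), kept that of Trpv4 (0.0267) and gave 1760 calls over all genes there and 0 in S205A and Y308F. With all 8 groups in 1 fit neither gene was called (0.138 and 0.433). The numbers alone did not pair the libraries. Piezo2 in S205A was higher in each of 16 alternatives (1.23 to 2.43), none of which called it (adjusted p from 0.0804 to 1.00), while the authors' deposited table, from a DESeq2 fit of all libraries, calls it (adjusted p = 0.0104). Without the 2 farthest libraries r was 0.41 for Piezo1 and 0.33 for Trpv4 with endothelial markers, 0.76 for Piezo2 with fibroblast markers and -0.67 for Trpv2 with macrophage markers. By coding length the levels were 14.4 (Piezo1), 0.820 (Piezo2), 1.37 (Trpc6), 15.3 (Trpm4), 16.8 (Trpv2), 41.9 (Trpv4), 33.1 (Pkd1) and 52.5 (Pkd2) CPM per kb.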
